A study of Mus musculus with 7 samples.

Results

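Inflammatory CC chemokines are small secreted proteins that draw leukocytes into inflamed tissue, and they act through G protein-coupled receptors on those cells. The members described here are 9 genes, chosen by symbol from the table of 17920 genes: the ligands Ccl2, Ccl7, Ccl12, Ccl8, Ccl3, Ccl4 and Ccl5 and the receptors Ccr1 and Ccr2. RNA of mouse spleen was sequenced in 7 libraries. All mice were C57BL/6, 8 weeks old, and had received 20 mg/kg lipopolysaccharide (LPS), a bacterial cell wall component, into the peritoneal cavity. Spleens were removed after 90 min or 6 h from wild-type mice (2 libraries at each time) and from mice labelled GdX-/-, written GdX-/Y in the protocol (2 libraries at 90 min and 1 at 6 h). GdX is the ubiquitin-like protein encoded by the X-linked gene Ubl4a. The allele's design is not given in the sources used here, and no spleen without LPS was analysed here, so a level before LPS is not known. The series describes 4 wild-type and 3 GdX-/- mice, 1 for each library, and p-values measure the spread between these libraries.

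As background, Ccl2, Ccl7, Ccl8 and Ccl12 are the monocyte chemoattractant proteins of the mouse. Ccl2, Ccl7 and Ccl12 act mainly through Ccr2, the receptor that lets inflammatory monocytes leave the bone marrow. Ccl3, Ccl4 and Ccl5 are made by macrophages, natural killer cells and T cells, and Ccl3 and Ccl5 bind Ccr1, a receptor of neutrophils and monocytes. Many of these ligand genes are direct targets of NF-kB and of interferon signalling after LPS.

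The ligands lie in separate groups on mouse chromosome 11, with Ccl2, Ccl7, Ccl12 and Ccl8 in the first and Ccl5, Ccl3 and Ccl4 in the second, and the receptors lie on chromosome 9 (RefSeq, GRCm38.p6). Ccl2 (chr11:82035577-82037452), Ccl7 (chr11:82045712-82047525), Ccl12 (chr11:82101845-82103399) and Ccl8 (chr11:82115185-82116799) lie in a row on the plus strand. Ccl5 (chr11:83525778-83530518) and Ccl3 (chr11:83647843-83649378) lie on the minus strand and Ccl4 (chr11:83648624-83664683) on the plus strand. A predicted Ccl4 transcript reaches back over Ccl3 by 755 bases on the opposite strand, and whether counting used strand is not stated, so reads in that overlap are uncertain. Ccr1 (chr9:123962126-123968692) is on the minus strand and Ccr2 (chr9:124101918-124109140) on the plus strand. The longest run of bases shared by any pair of member transcripts was 23, between Ccl2 and Ccl7, followed by 17 between Ccl2 and Ccl12 and between Ccl7 and Ccl8.

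No promoter window was at hand for Ccl2, Ccl7, Ccl4 and Ccl5. The 250 bases before the transcription start are printed for 4 of the other members, which took different courses. Among these are Ccl12 and Ccl8, neighbours of which the first overlapped between the times and the second lay higher at 6 h. Printed too are Ccl3, lower at 6 h in wild type, and Ccr1, the receptor that was higher in the libraries labelled GdX-deficient. Capitals mark matches to the motif letters searched, each 5′ to 3′ on the gene's own strand. They are the forward letters TATAAA, those of the core promoter box read by the basal machinery, in Ccl12 and Ccl8 and the reverse complement of GAAANNGAA (interferon-stimulated response element) in Ccl3.
Ccl12: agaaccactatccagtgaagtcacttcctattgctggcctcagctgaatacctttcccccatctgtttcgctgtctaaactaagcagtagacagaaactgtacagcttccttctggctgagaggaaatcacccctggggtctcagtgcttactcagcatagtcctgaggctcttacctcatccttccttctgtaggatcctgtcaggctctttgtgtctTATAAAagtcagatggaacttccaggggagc
Ccl8: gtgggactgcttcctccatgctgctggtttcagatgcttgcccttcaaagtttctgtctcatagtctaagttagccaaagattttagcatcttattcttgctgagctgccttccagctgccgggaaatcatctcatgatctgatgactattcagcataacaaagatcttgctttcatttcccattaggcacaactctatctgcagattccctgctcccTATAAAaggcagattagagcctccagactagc
Ccl3: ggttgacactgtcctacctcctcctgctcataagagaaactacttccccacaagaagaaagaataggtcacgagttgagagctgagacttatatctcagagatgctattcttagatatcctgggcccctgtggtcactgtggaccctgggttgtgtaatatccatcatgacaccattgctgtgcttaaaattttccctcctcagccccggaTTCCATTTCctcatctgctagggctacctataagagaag
Ccr1: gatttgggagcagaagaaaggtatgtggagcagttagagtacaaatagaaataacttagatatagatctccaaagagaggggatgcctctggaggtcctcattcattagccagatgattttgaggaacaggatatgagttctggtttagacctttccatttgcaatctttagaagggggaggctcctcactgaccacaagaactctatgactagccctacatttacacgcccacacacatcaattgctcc
These windows are chr11:82101595-82101844, plus strand, for Ccl12, chr11:82114935-82115184, plus strand, for Ccl8, chr11:83649379-83649628, minus strand, for Ccl3, and chr9:123968693-123968942, minus strand, for Ccr1 (RefSeq, GRCm38.p6). The letters TATAAA lay 31 to 26 bases before the start in Ccl12 and 32 to 27 bases before it in Ccl8. The match in Ccl3 lay 39 to 31 bases before the start. Ccr2, whose window is not printed, also held the reverse complement of GAAANNGAA, 86 to 78 bases before its start. Over 32851 promoter windows of 300 bases, 8.32% held TATAAA on the forward strand and 8.56% held GAAANNGAA on either strand. The other letters searched on both strands had no match in the 4 windows: GGGANNTTC (NF-kB, in 3.94% of all windows), TGANTCA (AP-1, 7.81%), TTCNNNGAA (STAT, 8.3%), TTGCNNAA (C/EBP, 10.8%) and GGGCGG (GC box, 35.7%). A match is a description of the letters and no match says only that these letters are not in the window.

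The depth of the libraries, estimated from the steps between low values, lay between 19200000 and 21800000 fragments. Values are FPKM (fragment counts corrected for transcript length and sequencing depth), as the authors deposited them. Ubl4a itself was listed at 4.03 and 5.69 FPKM in the 90 min libraries labelled GdX-deficient against 5.62 and 7.5 in wild type, and at 10.56 against 11.88 and 14.01 at 6 h. These ranges overlap at 90 min, so the RNA of the targeted gene does not check the genotype, and the libraries are called by their labels. Lymphocyte RNA was present in every library, with the T cell gene Cd3e at 15.22 to 38.2 FPKM. The 2 libraries labelled GdX-deficient at 90 min stood apart from each other in the members, and neither can be called the unlike one. All 9 members differed at least 2-fold between them, 2.01-fold (Ccr2) to 8.32-fold (Ccl3), where 10.7% of the 11378 tested genes did. In wild type none of the 9 differed 2-fold between replicates, at 90 min (3.26% of all genes did) or at 6 h (17.0%). Every ligand was lower and both receptors were higher in replicate 2 labelled GdX-deficient at 90 min than in its replicate 1. Results on the genotype at 90 min therefore rest on a pair of libraries unlike in the members and are given with and without each.

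At 90 min Ccl2, Ccl7 and Ccl12, the ligands of Ccr2, were lower in the libraries labelled GdX-deficient, and no difference passed the test over all genes. Ccl2, the main monocyte attractant, was at 442.3 and 316.06 FPKM in wild type and at 207.05 and 57.47 FPKM in the libraries labelled GdX-deficient. Both of the latter lay below both wild-type values, with means of 379 ± 89.3 and 132 ± 106 FPKM (SD, n = 2 each), 2.87-fold apart. On the log2(FPKM + 1) scale the difference was -1.77 (SE 0.51; limma, adjusted p = 0.551). Ccl7, another ligand of Ccr2, was at 71.32 and 45.68 FPKM in wild type and at 26.22 and 3.97 FPKM in the libraries labelled GdX-deficient. The groups did not overlap, and the difference of -2.32 (SE 0.66; limma, adjusted p = 0.547) was the largest of the 9 members. Ccl12, a mouse gene related to Ccl2, was at 23.41 and 17.03 against 14.93 and 6.11 FPKM, again without overlap, a difference of -0.98 (SE 0.40; limma, adjusted p = 0.621). Ccl8 was near the lower end of what the depth resolves, at 0.61 and 1.01 against 1.33 and 0.65 FPKM, which is about 6 to 13 fragments. Its groups overlapped (difference 0.12).

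Ccl3, Ccl4 and Ccl5 were lower mainly in replicate 2. Ccl3 was at 197.72 and 182.78 FPKM in wild type and at 157.13 and 18.88 FPKM in the libraries labelled GdX-deficient, a difference of -1.77 (SE 0.73; limma, adjusted p = 0.621). Replicate 1 lay close to the wild-type values and replicate 2 far below them. Ccl4, transcribed next to Ccl3 from the other strand, was at 1088.37 and 878.17 against 881.95 and 221.96 FPKM. Here replicate 1 reached the lower wild-type value, so the groups overlapped, and the difference was -1.14 (SE 0.54; limma, adjusted p = 0.621). Ccl5, which NK and T cells also hold, was at 600.91 and 829.16 against 868.19 and 376.93 FPKM. Its groups overlapped, with a difference of -0.30.

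**Figure D1:**
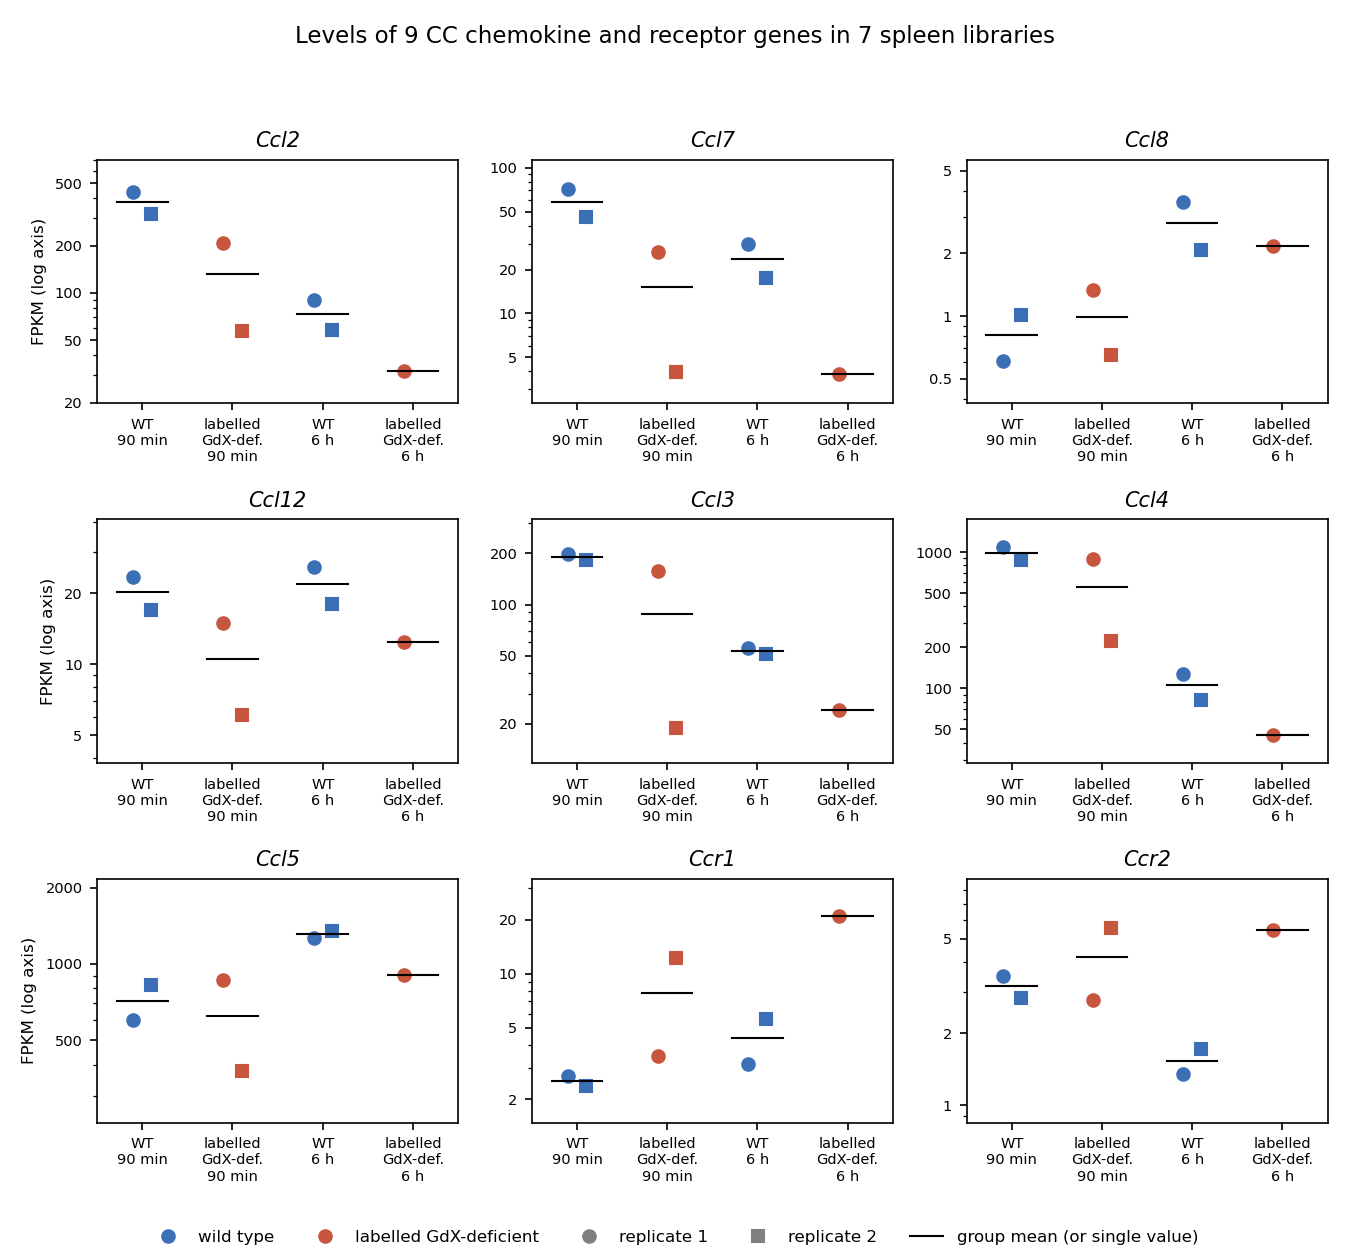
FPKM (log axis) of the 9 genes in each of the 7 libraries, by genotype label and time after LPS, where circles and squares are replicates 1 and 2 and the line is the group mean or the single value. The square for the libraries labelled GdX-deficient at 90 min lies far from the circle in every panel, as for Ccl3 at 18.88 and 157.13 FPKM.

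Among the receptors Ccr1 ran opposite to the ligands that were lower without overlap (Ccl2, Ccl7, Ccl12 and Ccl3). It was at 2.69 and 2.37 FPKM in wild type and at 3.47 and 12.23 FPKM in the libraries labelled GdX-deficient at 90 min, without overlap, a difference of 1.12 (SE 0.48; limma, adjusted p = 0.621). Ccr2 was at 3.48 and 2.83 against 2.77 and 5.57 FPKM and overlapped (difference 0.26). None of the 9 members passed the threshold at 90 min (limma, adjusted p under 0.05), where 0.0176% of all tested genes did, and 5 of the 9 had an unadjusted p under 0.05, as did 862 of the 11378 genes. Lower without overlap were 4 members, all ligands, against a background of 23.4% of all tested genes. In a count added after the data were seen, 5 members lay below both wild-type values in replicate 1 alone (Ccl2, Ccl7, Ccl12, Ccl3 and Ccr2, beside 43.8% of all tested genes), and 6 did in replicate 2 alone (the ligands other than Ccl8, beside 29.9%). The median difference of the 9 members was -0.98, and that of all tested genes 0.07.

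These sizes depended on which library labelled GdX-deficient was used. Without replicate 2 the 90 min differences were -0.85 for Ccl2, -1.09 for Ccl7, -0.40 for Ccl12, -0.27 for Ccl3, -0.15 for Ccl4 and 0.34 for Ccr1. Ccl5 then turned from -0.30 to 0.30 and Ccr2 from 0.26 to -0.14. Without replicate 1 they were -2.68 for Ccl2, -3.55 for Ccl7, -1.56 for Ccl12, -3.27 for Ccl3 (limma, adjusted p = 0.0279), -2.13 for Ccl4 and 1.91 for Ccr1, and Ccl8 turned from 0.12 to -0.12. That leaves a single library labelled GdX-deficient, so the p for Ccl3 takes its spread from the other groups. The same holds below wherever a library left out leaves its group with 1: the lone library is assumed to vary like the other groups. When the fit used the 4 libraries at 90 min alone, Ccl2 and Ccl7 passed the threshold at the same size of difference (limma, adjusted p = 0.0125 and 0.00602), as did 181 genes in all. They passed as well when either 6 h wild-type library was left out (limma, adjusted p = 0.0117 and 0.00917 for Ccl2, 0.00759 and 0.00561 for Ccl7; 173 and 183 genes in all), Ccl3 did without wild type 6 h replicate 2 (limma, adjusted p = 0.0493), and Ccl7 did without wild type 90 min replicate 2 (-2.64; limma, adjusted p = 0.0384). Differences between the genotypes also varied with transcript length, and so did those between replicates. Across genes, the replicate 1 minus 2 difference correlated with length at -0.45 and -0.59 (Spearman) in wild type at 90 min and 6 h. In the libraries labelled GdX-deficient at 90 min this correlation was -0.17. The ligand transcripts are 511 to 813 bases long and those of the receptors 2833 and 2999 bases, and the 356 tested genes in the range of the ligands had a median difference of -0.37 at 90 min, against 0.07 for all tested genes. With the dependence on transcript length and GC content taken out of each library, the differences were -1.42 for Ccl2, -1.98 for Ccl7, -0.59 for Ccl12, -1.41 for Ccl3, -0.78 for Ccl4 and 1.01 for Ccr1.

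At 6 h the single library labelled GdX-deficient lay below both wild-type libraries in 6 of the 7 ligands, where it did so for 25.3% of all tested genes, and above both in the 2 receptors, where it did so for 54.9%. No difference passed the test. The library labelled GdX-deficient held 31.65 FPKM of Ccl2 against 89.49 and 57.65 in wild type, and 3.85 FPKM of Ccl7 against 30.09 and 17.44. It held 12.39 FPKM of Ccl12 against 25.71 and 17.92, 24.04 of Ccl3 against 55.63 and 51.33, and 45.29 of Ccl4 against 127.68 and 82.7. It was thus below both wild-type libraries for these 5 ligands and for Ccl5, which was at 904.58 against 1267.14 and 1356.55 FPKM. Ccl8, at 2.17 against 3.53 and 2.08 FPKM, lay between them. Ccr1 was at 21.03 FPKM against 3.15 and 5.57, and Ccr2 at 5.44 FPKM against 1.35 and 1.72, both above the wild-type libraries. With the lone library assumed to vary like the other groups, the largest differences at 6 h were those of Ccl7 (-2.30, SE 0.81; limma, adjusted p = 0.110), Ccr1 (2.08, SE 0.59; limma, adjusted p = 0.0714) and Ccr2 (1.35, SE 0.40; limma, adjusted p = 0.0794). No member passed the threshold there (limma), where 3.96% of all tested genes did. At an unadjusted p under 0.05, 3 of the 9 members passed, and 3233 of all genes did. With replicate number as a block in the fit, the 6 h differences were -1.65 for Ccl2, -2.94 for Ccl7, -1.10 for Ccl12 and -1.65 for Ccl4. They were 2.43 for Ccr1 and 1.48 for Ccr2. The outcome depended on this setting and on single libraries. Without wild type 6 h replicate 2, which leaves 1 library on each side and takes the spread from the 90 min groups alone, 5 members passed the threshold, as did 3035 of the 11378 genes, among them Ccl7 (-2.68; limma, adjusted p = 0.00317) and Ccr1 (2.41; limma, adjusted p = 0.00244). When any 1 of the 4 libraries at 90 min was left out, which changes only the spread, Ccl7 passed with an adjusted p of 0.0183 to 0.0439 and Ccr1 with 0.024 to 0.0421 (limma), beside 627 to 838 genes in all. The 356 genes in the length range of the ligands had a median difference of -0.27 at 6 h, against 0.32 for all tested genes. With the length and GC trend removed, the 6 h differences were -0.85 for Ccl2, -1.99 for Ccl7, -0.39 for Ccl12, -0.80 for Ccl3, -0.87 for Ccl4, -0.33 for Ccl5 and 1.80 for Ccr1, and Ccl8 turned from -0.24 to 0.12. The median of the 9 members was then -0.39, against -0.75 before. Ccr2 passed there (1.04; limma, adjusted p = 0.0479), as did 1135 genes.

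Over all 7 libraries, with time as a covariate, the genotype difference was -2.31 for Ccl7 (SE 0.48; limma, adjusted p = 0.0991), -1.52 for Ccl2 (SE 0.39; limma, adjusted p = 0.101), -1.51 for Ccl3 (SE 0.54; limma, adjusted p = 0.125), -1.15 for Ccl4 (SE 0.40; limma, adjusted p = 0.120) and -0.89 for Ccl12 (SE 0.30; limma, adjusted p = 0.119). It was 1.51 for Ccr1 (SE 0.38; limma, adjusted p = 0.101), 0.70 for Ccr2 (limma, adjusted p = 0.170), -0.40 for Ccl5 (limma, adjusted p = 0.397) and -0.02 for Ccl8. None of the 9 passed the threshold, where 0.0439% of all tested genes did, and 7 of the 9 had an unadjusted p under 0.05 in limma, as did 3071 of the 11378 genes. Without the library labelled GdX-deficient, 90 min, replicate 1, 7 members passed, 5 lower and 2 higher, and 1674 genes did in all. Without replicate 2 none did, and Ccl3 was at -0.70. Without wild type 90 min replicate 2, Ccl7 passed (-2.47; limma, adjusted p = 0.0272). In all 18 alternatives run for this comparison, Ccl2, Ccl7, Ccl12, Ccl3 and Ccl4 kept a negative sign and Ccr1 a positive one. All of them reuse the same libraries. Those that change only the prior or the genes tested cannot change a sign. At both times 5 members differed in 1 direction without overlap, Ccl2, Ccl7, Ccl12 and Ccl3 lower and Ccr1 higher, against a background of 32.1% of all tested genes. In bulk RNA, fewer cells of a type and less RNA per cell cannot be told apart.

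**Figure D2:**
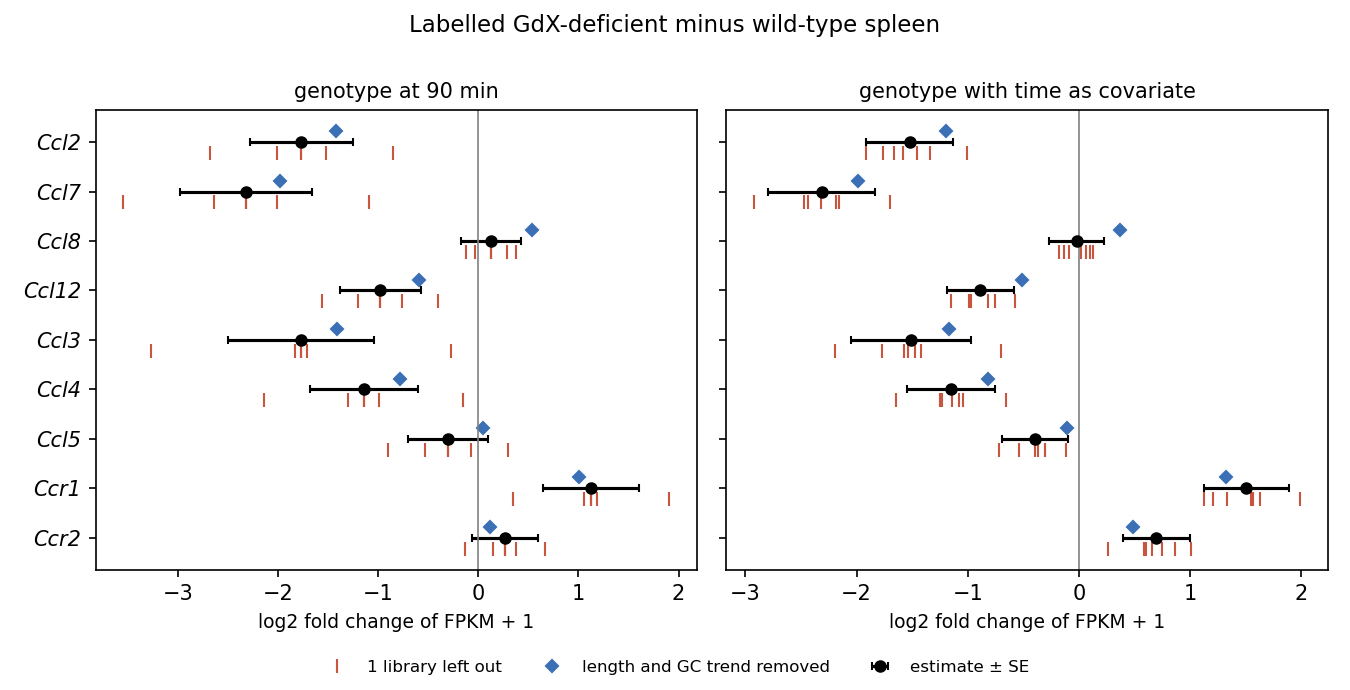
Differences on the log2(FPKM + 1) scale, labelled GdX-deficient minus wild type, for each of the 9 genes, at 90 min (left) and with time as a covariate (right), where black circles are limma estimates with their SE, red ticks are the values with 1 library left out and blue diamonds have the length and GC trend removed. The red ticks of Ccl3 at 90 min run from -3.27 to -0.27.

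Summed levels of the marker lists of several cell types differed between the same libraries. At 6 h the library labelled GdX-deficient lay above both wild-type libraries for 54.9% of all tested genes. There 3.96% of all tested genes passed the threshold (limma), and the median difference was 0.32. At 90 min 0.0176% passed (limma), and the median difference was 0.07. The counts below are to be read beside these shares. The summed level of 10 neutrophil marker genes was 4918 FPKM in the library labelled GdX-deficient, 90 min, replicate 2 and 2685 FPKM in the one at 6 h. It was 1120 FPKM in replicate 1 and between 813 and 1276 FPKM in the 4 wild-type libraries. Most of each sum came from S100a8 and S100a9. In a sum over the other 8 genes, added after the data were seen, the values were 865 and 361 FPKM in those 2 libraries, 221 FPKM in replicate 1 and 139 to 309 FPKM in wild type. Ccr1, which neutrophils and monocytes carry, was at 12.23 and 21.03 FPKM in the 2 libraries with the higher sums. In the other 5 it was at most 5.57 FPKM. Between those 2 libraries the order reversed, since the sum was higher at 90 min and Ccr1 at 6 h. The same 2 libraries also held the highest B cell marker sums, 2364 and 2018 FPKM against at most 1702 FPKM elsewhere. They held the highest Itgam too, a gene of the monocyte list (16.49 and 17.41 FPKM). Of the 10 neutrophil genes 9 had a positive genotype difference at 90 min, none of the 10 passed the threshold (limma) and 4 had an unadjusted p under 0.05, and no marker was at 0 in any library. At 6 h 8 of the 10 were higher and 2 lower (Camp and Ngp), none past the threshold (limma), with 3 at an unadjusted p under 0.05. S100a8 was at 1935.49 and 1222.03 FPKM in those 2 libraries and at 292.42 to 475.03 FPKM in the others, and the granulocyte gene Ly6g at 11.56 and 7.0 against 1.09 to 2.94 FPKM. Camp, an antimicrobial peptide of neutrophil granules, did not follow them, at 58.99 and 15.17 FPKM against 14.76 to 120.21 FPKM, and the granule gene Ngp was lowest in the 6 h library labelled GdX-deficient, at 40.27 FPKM. The summed level of 10 monocyte markers overlapped at 90 min, where wild type held 603 and 715 FPKM and the libraries labelled GdX-deficient 700.3 and 554 FPKM. At 6 h it was 579 FPKM in the latter, above the 464 and 501 FPKM of wild type. At 6 h 7 of the 10 were higher and 3 lower, with 4 higher and 1 lower at an unadjusted p under 0.05. The lower one was Chil3 (15.78 against 27.54 and 26.92 FPKM, difference -0.75), and Ly6c2, a marker of inflammatory monocytes, passed the threshold (205.82 against 86.93 and 68.76 FPKM, difference 1.40; limma, adjusted p = 0.0437). That of 10 red pulp macrophage markers was 838 and 1053 FPKM at 90 min in the libraries labelled GdX-deficient, below 1175 and 1178 FPKM in wild type, and 1122 against 615.0 and 747 FPKM at 6 h. Of the 10 genes 7 were lower at 90 min, none past the threshold (limma), and 10 were higher at 6 h, 3 past the threshold (limma). Stromal markers summed to 72.1 and 68.3 FPKM in the libraries labelled GdX-deficient at 90 min, below 179 and 151 FPKM in wild type, and to 112 FPKM against 68.1 and 85.3 at 6 h. All 6 tested stromal genes were lower at 90 min and 5 had an unadjusted p under 0.05 (limma, none past the threshold), and the untested Lum was listed at 0 in 1 library. Erythroid markers summed to 1227 and 1026 FPKM against 548 and 620.5 at 90 min, and to 601 against 197 and 271 at 6 h. All 6 were higher at both times, with 5 at an unadjusted p under 0.05 at 90 min (limma, none past the threshold) and 4 past the threshold at 6 h (limma). Natural killer cell markers summed to 276 and 270.4 FPKM against 196 and 211 at 90 min, with 9 of 9 higher and none past the threshold (limma), and to 316 against 317 and 312 at 6 h. Gzma and Gzmb make up most of the 6 h sums, and 7 of the 9 genes were higher there (median difference 0.85, 4 at an unadjusted p under 0.05, none past the threshold in limma). The B and T cell lists lay outside the wild-type range at 6 h: B cell markers summed to 2018 FPKM in the library labelled GdX-deficient against 547 and 615 in wild type, and T cell markers to 489 against 249 and 213, with 3 of 9 and 3 of 10 past the threshold, all higher (limma). At 90 min the B cell sums were 1416 and 2364 against 1702 and 1621 FPKM and the T cell sums 427 and 580.5 against 574 and 503, both with overlap. Dendritic cell markers summed to 38.8 and 47.1 against 47.0 and 49.8 FPKM at 90 min and to 41.6 against 18.9 and 21.7 FPKM at 6 h, where 6 of 6 tested genes were higher and 1 passed the threshold (limma). Endothelial markers summed to 52.4 and 57.0 against 59.6 and 68.8 FPKM at 90 min and to 100.8 against 55.6 and 66.5 FPKM at 6 h, where 5 of 5 tested genes were higher and none passed (limma). The part of these cell types in the differences of the members was not tested.

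**Figure D3:**
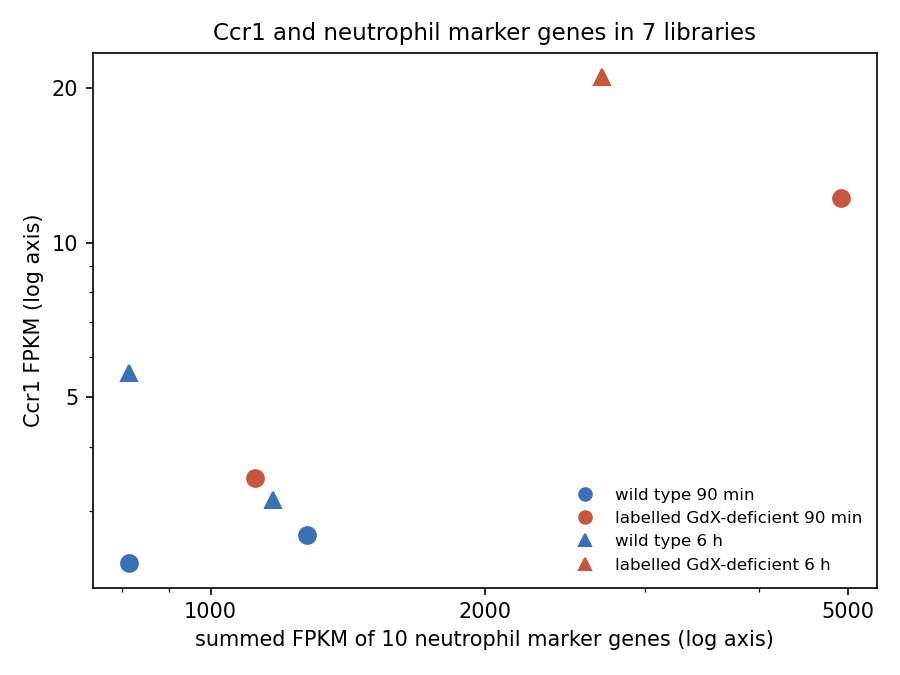
Ccr1 FPKM against the summed FPKM of 10 neutrophil marker genes in each of the 7 libraries (both log axes), coloured by genotype label, with circles for 90 min and triangles for 6 h. The libraries labelled GdX-deficient at 90 min, replicate 2 and at 6 h hold the highest values on both axes, with Ccr1 at 12.23 and 21.03 FPKM. The marker sum is higher in the first of these and Ccr1 in the second.

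With time the ligands took separate courses, and the fall of Ccl4 and Ccl2, whose products draw monocytes and lymphocytes, passed the test. In wild type Ccl4 fell from 1088.37 and 878.17 FPKM at 90 min to 127.68 and 82.7 FPKM at 6 h, 9.35-fold in the mean (difference -3.24, SE 0.54; limma, adjusted p = 0.00873). Ccl2 fell from 442.3 and 316.06 to 89.49 and 57.65 FPKM, 5.15-fold in the mean (-2.36, SE 0.51; limma, adjusted p = 0.0217). Ccl3 was at 197.72 and 182.78 FPKM at 90 min and at 55.63 and 51.33 FPKM at 6 h, without overlap, and missed the threshold (-1.81, SE 0.73; limma, adjusted p = 0.141). In a fit of the 4 wild-type libraries alone it passed (limma, adjusted p = 0.012), and so it did when either 90 min library labelled GdX-deficient was left out (limma, adjusted p = 0.0123 and 0.0121) or either 6 h wild-type library was (limma, adjusted p = 0.0328 and 0.0375). With no filter on low values, so that 17920 genes were tested, Ccl4 and Ccl2 missed the threshold too (limma, adjusted p = 0.0692 and 0.106). Ccl7 was at 71.32 and 45.68 and then at 30.09 and 17.44 FPKM (-1.28; limma, adjusted p = 0.235). Without wild type 6 h replicate 1 its difference was -1.66 (limma, adjusted p = 0.0437).

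The other members missed the threshold for time in wild type, and of these Ccl8 passed in some alternatives. Ccl5 was at 600.91 and 829.16 FPKM at 90 min and at 1267.14 and 1356.55 FPKM at 6 h, higher without overlap (0.89; limma, adjusted p = 0.174). Ccl8 was at 0.61 and 1.01 and then at 3.53 and 2.08 FPKM, or about 6 and 10 and then 36 and 21 fragments (1.05; limma, adjusted p = 0.0536), and missed the threshold. It passed in 4 of 18 alternatives: without wild type 6 h replicate 2 (1.33; limma, adjusted p = 0.0107), with the replicate block (1.05; limma, adjusted p = 0.03), with quantile normalization (1.32; limma, adjusted p = 0.045) and with the length and GC trend removed (1.12; limma, adjusted p = 0.042). Ccl12 overlapped between the times, at 23.41 and 17.03 and then 25.71 and 17.92 FPKM (0.10). Ccr1 was at 2.69 and 2.37 and then at 3.15 and 5.57 FPKM (0.57; limma, adjusted p = 0.479). Ccr2 went the other way, from 3.48 and 2.83 to 1.35 and 1.72 FPKM, without overlap (-0.71; limma, adjusted p = 0.187). In wild type 2 of the 9 members passed the threshold, where 10.7% of all tested genes did. At an unadjusted p under 0.05, 5 of the 9 members passed, as did 3262 of the 11378 genes.

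Marker lists moved with time in wild type as well, where 10.7% of all tested genes passed the threshold, 499 higher and 719 lower (limma). Past the threshold and lower at 6 h were 6 of 10 T cell genes, 6 of 10 red pulp macrophage genes, 5 of 6 erythroid, 5 of 6 dendritic cell, 4 of 9 B cell, 3 of 6 stromal, 3 of 10 monocyte and 2 of 9 natural killer cell genes (limma). Among endothelial genes 1 of 5 was lower and 1 higher past the threshold, and no neutrophil gene passed (limma). T cell markers summed to 574 and 503 FPKM at the earlier time and 249 and 213 at the later, and red pulp macrophage markers to 1178 and 1175 and then to 747 and 615.0 FPKM. Monocyte markers summed to 603 and 715 and then to 464 and 501 FPKM, stromal markers to 179 and 151 and then to 68.1 and 85.3 FPKM, and natural killer cell markers, which rested mostly on Gzma and Gzmb, to 196 and 211 and then to 317 and 312 FPKM. The part of these cell types in the time differences of the members was not tested.

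**Figure D4:**
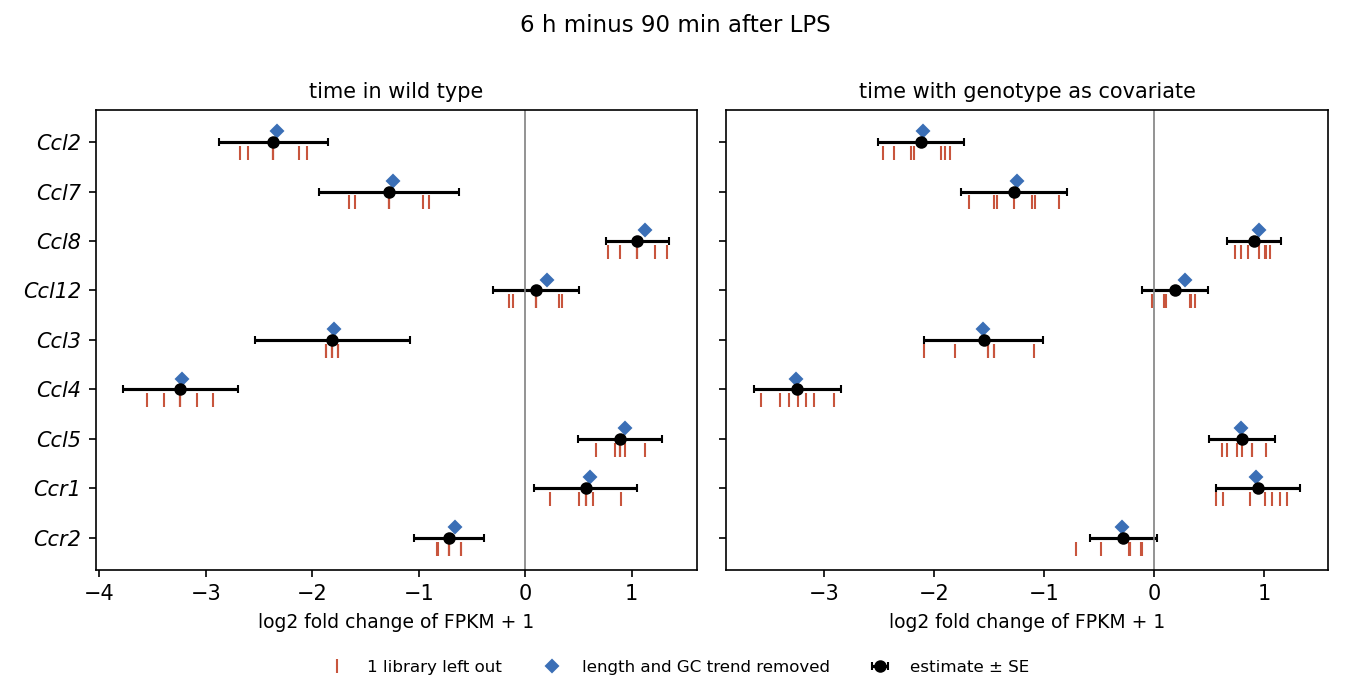
Differences on the log2(FPKM + 1) scale, 6 h minus 90 min, for each of the 9 genes, in wild type (left) and with genotype as a covariate (right), drawn with limma estimates and SE in black, values with 1 library left out in red and values with the length and GC trend removed in blue. Ccl4 lies farthest below 0, at -3.24 in wild type and -3.25 with genotype as a covariate.

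In the libraries labelled GdX-deficient Ccl4 also had the largest time difference of the members. It was at 881.95 and 221.96 FPKM at 90 min and at 45.29 FPKM at 6 h (-3.26, SE 0.66; limma, adjusted p = 0.122, and 0.000133 to 0.000792 without any 1 of the 4 wild-type libraries), and Ccl2 at 207.05 and 57.47 and then 31.65 FPKM (-1.76, SE 0.63; limma, adjusted p = 0.457, and 0.0305 or 0.0266 without wild type 6 h replicate 1 or 2). Ccr1 was at 3.47 and 12.23 and then 21.03 FPKM (1.52; limma, adjusted p = 0.525), above both. The 6 h values of Ccl7 (3.85 FPKM) and Ccl3 (24.04 FPKM) were close to those of 90 min replicate 2 (3.97 and 18.88 FPKM) and far from those of replicate 1 (26.22 and 157.13 FPKM). None of the 9 members passed the threshold in this comparison (limma), nor did any other gene (0.0%), with 3 of 9 members and 910 genes at an unadjusted p under 0.05. With genotype as a covariate 2 members passed, Ccl4 (-3.25, SE 0.40; limma, adjusted p = 0.00341) and Ccl2 (-2.12, SE 0.39; limma, adjusted p = 0.0173), where 5.44% of all tested genes did. Ccl4 passed in all 18 alternatives run for this comparison, and Ccl2 missed with no filter on low values (limma, adjusted p = 0.0852). Without wild type 6 h replicate 2, Ccl2 was at -1.90 (limma, adjusted p = 0.0553), and without the 90 min replicate 2 labelled GdX-deficient, Ccl3 (-2.09; limma, adjusted p = 0.00492) and Ccl7 (-1.68; limma, adjusted p = 0.0343) passed too. Ccl7 also passed with the replicate block (-1.51; limma, adjusted p = 0.0439), and Ccl8 with the length and GC trend removed (0.96; limma, adjusted p = 0.0449) and without the 90 min replicate 1 labelled GdX-deficient (1.02; limma, adjusted p = 0.0455). In both genotypes without overlap, 3 members were lower at 6 h (Ccl2, Ccl7 and Ccl4), against a background of 9.6% of all tested genes, and 3 were higher (Ccl8, Ccl5 and Ccr1), against a background of 24.0%.

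The test of whether the genotype difference itself changed with time found no member past the threshold (limma), where 0.0703% of all tested genes passed, and none at an unadjusted p under 0.05. The largest such change was that of Ccr2 (1.08, SE 0.52; limma, adjusted p = 0.549): it was lower at 6 h in wild type and at 5.44 FPKM in the 6 h library labelled GdX-deficient, against 2.77 and 5.57 FPKM at 90 min. That of Ccr1 was 0.95 (SE 0.76; limma, adjusted p = 0.779). With a single library in 1 of the 4 groups the SE of these changes lay between 0.47 and 1.15, so changes of that size were not resolved.

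FPKM is a level per length, so the 7 ligands can be set beside each other within a library. At 90 min Ccl4 took 44.9% and 38.7% of their summed FPKM in wild type and 40.9% and 32.4% in the libraries labelled GdX-deficient, and Ccl5 took 24.8% and 36.5%, and 40.3% and 55.0%. At 6 h Ccl5 took 79.2% and 85.6% in wild type and 88.3% in the library labelled GdX-deficient, and Ccl4 took 7.98%, 5.22% and 4.42%. The ranges of the 2 times did not overlap for either gene (exact permutation test over 4 and 3 libraries, two-sided, p = 0.0571, the smallest this design allows). The share of Ccl2 was 8.38% to 18.2% at 90 min and 3.09% to 5.60% at 6 h, again without overlap (exact permutation p = 0.0571). That of Ccl3 was 7.29% to 8.16% in 3 of the 4 libraries at 90 min and 2.75% in the library labelled GdX-deficient, replicate 2, beside 2.35% to 3.48% at 6 h (exact permutation p = 0.171). The summed FPKM of the 7 ligands was 2425 and 2270 in wild type at 90 min, 2157 and 686 in the libraries labelled GdX-deficient, 1599 and 1586 in wild type at 6 h and 1024 in the last library. Thus the sum overlapped between the times (exact permutation p = 0.400), through the 686 of replicate 2 labelled GdX-deficient alone. The shares of Ccl4, Ccl5 and Ccl2 did not overlap, nor did those of Ccl8 and Ccl12 (exact permutation p = 0.0571 each). That of Ccl7 overlapped (exact permutation p = 0.400). The shares add up to the whole, so a lower share of 1 ligand raises the others, and they are not separate results. Of the 14 shares, sums and ratios tested in this way, none can pass an adjusted threshold in this design.

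**Figure D5:**
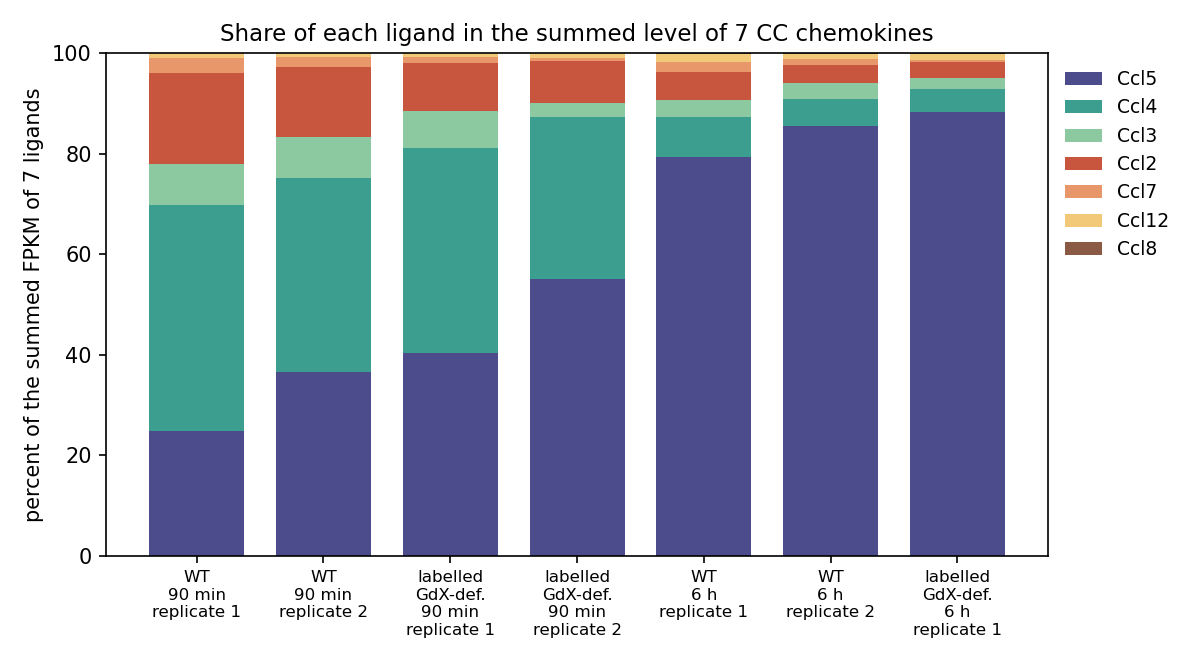
Share of each of the 7 ligands in their summed FPKM, in percent, in each of the 7 libraries, as stacked bars from 0 to 100. Ccl5 takes at most 55.0% in the 4 libraries at 90 min and at least 79.2% in the 3 at 6 h.

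Ratios between neighbouring genes showed where members parted. Ccl2 over Ccl7 was 6.20 and 6.92 in wild type at 90 min and 7.90 and 14.5 in the libraries labelled GdX-deficient. At 6 h it was 2.97 and 3.31 in wild type and 8.22 in the library labelled GdX-deficient, so Ccl7 was lower relative to Ccl2 in each library labelled GdX-deficient than in wild type of the same time. Ccl4 over Ccl3 was 4.81 to 11.8 at 90 min and 1.61 to 2.30 at 6 h. Ccr1 over Ccr2 was 0.773 and 0.838 in wild type at 90 min and 1.25 and 2.20 in the libraries labelled GdX-deficient, and 2.33, 3.24 and 3.87 at 6 h. These ratios are descriptions.

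Most other CC chemokines were lower at 90 min in the libraries labelled GdX-deficient too, without a call. Of 16 other CC chemokines 11 were tested, and at 90 min 10 of the 11 were lower in the libraries labelled GdX-deficient, with a median difference of -1.48. None passed the threshold (limma), and 7 had an unadjusted p under 0.05. Ccl19, a homeostatic ligand of the T cell zone, was at 129.04 and 106.13 FPKM in wild type and at 63.45 and 26.97 FPKM in the libraries labelled GdX-deficient. Ccl22, made by dendritic cells and macrophages, was at 51.53 and 61.75 against 39.86 and 4.17 FPKM. Ccl6 was the one that was higher, at 24.7 and 18.41 against 15.56 and 62.65 FPKM, with overlap. At 6 h 4 of the 11 were lower and 7 higher, with a median of 0.28, against -0.75 for the 9 members and 0.32 for all tested genes. Between the times in wild type, 4 of the 11 fell past the threshold (Ccl6, Ccl9, Ccl21c and Ccl24). Of all tested genes 10.7% passed it in either direction (limma). Ccl9 fell by 1.25 (limma, adjusted p = 0.0244) and Ccl24, an eosinophil attractant, by 1.46 (limma, adjusted p = 0.0153).

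Of the other CC and atypical receptors 9 of 13 were tested. None of the 9 passed the threshold by genotype at 90 min (limma), and 3 had an unadjusted p under 0.05. In wild type Ccr3, Ccrl2 and Ackr1 fell with time (limma). Ccrl2, an atypical receptor induced by inflammatory signals, was at 65.17 and 83.29 FPKM at 90 min and at 19.3 and 40.77 FPKM at 6 h (-1.36; limma, adjusted p = 0.0381), and Ccr3, the eosinophil receptor, fell from 2.69 and 3.12 to 0.04 and 0.21 FPKM (-1.80; limma, adjusted p = 0.00401). Of 20 tested genes of signalling behind chemokine receptors, none passed by genotype at 90 min (limma), also at an unadjusted p under 0.05, and 15 were higher, with a median of 0.20. At 6 h 18 of the 20 were higher, with a median of 0.95 against 0.32 for all tested genes, 13 had an unadjusted p under 0.05 (12 higher and 1 lower) and 1, Rgs2, passed the threshold (limma). Rgs2, which shortens G protein signals, fell with time in wild type, from 22.54 and 17.36 to 7.28 and 7.67 FPKM (-1.29; limma, adjusted p = 0.0227). At 6 h it was higher in the library labelled GdX-deficient, at 26.1 FPKM (1.68; limma, adjusted p = 0.0387).

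The genes whose log2(FPKM + 1) ran most like each member over the 7 libraries are given as a description, from 7020 candidates that spanned at least 1 on that scale. With Ccl7, Il10 had a Pearson r of 0.994, at 23.42 and 18.42 FPKM in wild type and 12.24 and 1.96 FPKM in the libraries labelled GdX-deficient at 90 min, and 10.73 and 7.33 against 1.37 FPKM at 6 h. Ptx3 (r 0.985) and Rilpl2 (r 0.981) followed. With Ccl2 these were F3 (tissue factor, r 0.994), Cxcl5 (a neutrophil attractant, r 0.986) and Oaf (r 0.983). Ccl3 ran most like Gadd45b (r 0.992), Dusp2 (r 0.987) and Cd70 (r 0.986), and Ccl4 most like Zufsp (r 0.992), Psd (r 0.986) and Tnfsf9 (r 0.983). Ccl12 was nearest to Timp1 (r 0.990), Tnfrsf4 (r 0.978) and Iscu (r 0.970). Ccl8 was nearest to Eid2 (r 0.963) and to Oas1a and Oas1g (r 0.960 each), genes of the interferon response, and Ccl5 to Pgam1 (r 0.968), Gja4 (r 0.967) and Slc25a1 (r 0.959). For Ccr1 they were Irgc1 (r 0.998), Sema4b (r 0.993) and Casp9 (r 0.991), and for Ccr2 Fam3a, Tbc1d10c and Pde7a (r 0.994 to 0.995). Among the members, Ccl2 ran with Ccl4 (r 0.945) and Ccl3 (r 0.939), Ccl8 with Ccl5 (r 0.838), and Ccr1 opposite to Ccl7 (r -0.956). The 7 points are the same libraries throughout, with their shared depth and their 4 groups.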

How the data were processed

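Spleen RNA of 7 libraries was sequenced on a BGISEQ-500 instrument after poly(A) selection or rRNA depletion, per the labels' protocols, which leave that choice open. The authors deposited FPKM values, with 1 column per library and no counts, per the file headers. HISAT, HISAT2 2.0.4, Bowtie2, RSEM and the build GRCm38.p5 are named in the submitters' processing notes, without their roles. Tests used limma 3.58.1 (R 4.3.3) on log2(FPKM + 1), over 11378 genes whose mean FPKM reached 1 (trend on mean expression, two-sided, Benjamini-Hochberg over all tested genes, threshold 0.05). All 9 members passed that filter. This scale understates changes of low genes. Genotype at each time, time in each genotype and their interaction came from a fit of 4 groups. Genotype with time, and time with genotype, as a covariate came from an additive fit. The depth was estimated from value steps of 66 to 94 low genes per library. They came from the 5014 genes with a single transcript of known length, shortened by 40 bases. The mean cosine of the fit to whole steps, which is 1 for a perfect fit, was 0.40 to 0.57. Depths and fragment numbers are therefore approximate. The alternatives written for counts were not run, since the table holds none. The members, gene lists, named genes (the 9 members, Ubl4a, list genes past the threshold and the most abundant of each list, and the 3 nearest genes by Pearson r) and tests were chosen with earlier results of these data known. Some genes of the lists are not reported here. Genes named singly from the marker lists were picked after their values were seen. The fits were tested on simulated data.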

Additional observations from a re-analysis of the deposited data

How the results depend on the processing

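In the 90 min genotype comparison 2 genes passed the threshold. It was 0 with the length and GC trend removed, alone or with the replicate block, and 181 with only the libraries compared, where 2 members passed; leaving out 1 library gave 2 to 183 genes and 0 to 3 members. In wild type over time 1218 genes passed. It was 635 without a filter on low values (0 members), 708 rescaled without globin genes, 2629 with the length and GC trend removed, 2345 with the replicate block and 2845 with both, and leaving out 1 library gave 450 to 1774 genes and 2 to 4 members. For genotype with time as a covariate (5 genes) it was 1 with the trend removed, 12 with the replicate block (1 member, Ccl7) and 0 with both, and 2 to 1674 genes and 0 to 7 members with 1 library left out. For time with genotype as a covariate (619) it was 104 without a filter (1 member), 327 without globin genes, 1171 with the trend removed, and 154 to 1204 genes and 1 to 4 members with 1 library left out. For genotype at 6 h (450) it was 90 without a filter, 233 with a mean of at least 5, 270 with quantile normalization, 255 without globin genes, 1135 with the trend removed (1 member), 3383 with the replicate block (6 members) and 1957 with both (2 members). With 1 library left out it was 627 to 3035 genes and 0 to 5 members. For time in the libraries labelled GdX-deficient (0 genes) it was 22 without a filter, 37 with the replicate block (1 member), and 0 to 236 genes and 0 to 2 members with 1 library left out. For the interaction (8 genes, and 0 members in every alternative run) it was 0 with a pseudocount of 0.1, with a mean of at least 5 or without globin genes, 3 without a filter, 4 with quantile normalization or TMM scaling, 19 with the trend removed, 80 with the replicate block, 2 with both or with no trend in the prior, and 0 to 238 with 1 library left out. The causes of these shifts were not tested.

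The replicate numbers were not taken to pair the libraries, since nothing in the labels ties them and not every pair of groups varied together: the differences between replicates 1 and 2 correlated across genes at -0.12 between the genotypes at 90 min, 0.08 between 90 min labelled GdX-deficient and 6 h wild type, and 0.77 between the wild-type groups. Rescaling without globin genes moved the median genotype difference of all genes from 0.07 to 0.25 at 90 min and from 0.32 to 0.55 at 6 h. Calls in wild type over time were 499 higher and 719 lower, and 191 and 517 without globin genes. With genotype as a covariate they were 318 and 301, and 181 and 497 with TMM scaling. At 6 h they were 331 and 119, and 583 and 552 with the trend removed.

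Signs turned mostly for values near 0 that had passed no test. Ccl5 at 90 min turned to 0.044 with the trend removed, with or without the replicate block. Ccl12 over time in wild type turned to -0.0071 with quantile normalization and -0.012 without globin genes, and in the libraries labelled GdX-deficient to -0.018 with the replicate block. Ccl8 with time as a covariate turned to 0.0096 with a pseudocount of 0.1, 0.12 without globin genes, 0.37 with the trend removed and 0.41 with the replicate block too, and at 6 h to 0.12 and 0.22 in the latter pair. For the interaction Ccl7 turned to -0.077 with a pseudocount of 0.1, -0.26 with quantile normalization, -0.16 with TMM scaling, -0.013 with the trend removed, -0.62 with the replicate block and -0.50 with both, Ccl12 to -0.12 with the block and Ccl4 to 0.042 without globin genes. With 1 library left out, the genotype difference at 90 min ran from -0.12 to 0.37 for Ccl8, -0.90 to 0.30 for Ccl5 and -0.14 to 0.67 for Ccr2. With time as a covariate it ran from -0.18 to 0.12, and at 6 h from -0.52 to 0.042, for Ccl8. The time difference of Ccl12 ran from -0.15 to 0.35 in wild type, -0.25 to 0.91 in the other genotype and -0.017 to 0.37 with genotype as a covariate. In the libraries labelled GdX-deficient that of Ccl3 ran from -2.66 to 0.33 and that of Ccr2 from -0.029 to 0.77. The interaction ran from -1.02 to 0.97 for Ccl4, -0.83 to 0.37 for Ccl5, -0.31 to 1.52 for Ccl2, -1.21 to 1.24 for Ccl7, -0.35 to 0.81 for Ccl12 and -0.85 to 2.14 for Ccl3. The estimated depth gives Ccl8 only about 6 to 36 fragments per library.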
